A study of Mus musculus with 4 samples.

Results

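Zinc and copper transporters, metallothioneins and their regulators were compared between cell fractions sorted from the kidneys of mouse chimeras. The 35 genes were taken by symbol from the array annotation, from 18194 genes with a probe set of their own. They comprised 10 zinc exporters (Slc30a), 14 zinc importers (Slc39a), 4 metallothioneins, the factors Mtf1 and Mtf2, and 5 copper genes. A probe set is the group of array features that reads 1 transcript, and the 35 genes had 68 of them. The brightest of each gene by mean log2 value over all arrays stood for it. Kidneys were dissected on embryonic day 15.5 from chimeras made by injecting 3 to 5 embryonic stem cells, which carried green fluorescent protein (GFP) and a deletion of both copies of the transferrin receptor gene Tfrc, into wildtype blastocysts. After digestion with collagenase and trypsin, cells were sorted, and 2 arrays of GFP-positive cells labelled Tfrc-null and 2 of GFP-negative wildtype cells were run. Both fractions were sorted from chimeric kidneys, and the labels do not say whether arrays of the same number came from the same kidneys. None of the arrays held GFP-positive cells with Tfrc intact, so a difference due to Tfrc and one due to donor line against host cannot be told apart. The labels call the arrays of a group biological replicates without naming the embryos behind them, so a p-value measures the spread between these samples, which may be technical.

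The brightest Tfrc probe set, the only one read for that gene, did not check the label. It gave 1759 and 2348 in wildtype cells against 2509 and 3175 in the others. The labels do not name the exons removed, so whether this probe set lies in the deleted part is not known. Directions below therefore rest on the label, and the group is called labelled Tfrc-null. The median intensity of an array was 17.5 to 19.3. The control level was the brightest of 27 probe sets for the Bacillus subtilis genes dap, lys, phe, thr and trp, and stood at 7.18 to 9.08.

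Zinc and copper are cofactors that are toxic in excess, so cells hold them in balance by transport and binding. ZIP proteins, encoded by Slc39a genes, bring zinc into the cytosol, and ZnT proteins, encoded by Slc30a genes, move it out of the cell or into vesicles. Metallothioneins are small cysteine-rich proteins that bind both metals, and Mtf1 is the zinc-sensing transcription factor that binds metal response elements and induces Mt1, Mt2 and Slc30a1. Copper enters through Slc31a1, is carried by the chaperone Atox1 and is pumped by the ATPases Atp7a and Atp7b. Several of these carriers reach beyond zinc, and Slc39a8 and Slc39a14 also carry iron and manganese.

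Because Mt1, Mt2 and Slc30a1 are the textbook targets of Mtf1, the 250 bases before their RefSeq start sites are shown, from assembly GRCm38.p6, plus strand. They lie at chr8:94178839-94179088 for Mt1, chr8:94172368-94172617 for Mt2 and chr1:191906531-191906780 for Slc30a1. Capitals mark the letters TGCACNC or TGCGCNC, the core of the metal response element, on either strand.
Mt1: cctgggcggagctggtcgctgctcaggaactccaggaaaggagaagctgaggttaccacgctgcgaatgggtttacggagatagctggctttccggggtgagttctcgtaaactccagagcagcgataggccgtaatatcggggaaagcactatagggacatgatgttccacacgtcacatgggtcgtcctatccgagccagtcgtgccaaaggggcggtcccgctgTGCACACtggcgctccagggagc
Mt2: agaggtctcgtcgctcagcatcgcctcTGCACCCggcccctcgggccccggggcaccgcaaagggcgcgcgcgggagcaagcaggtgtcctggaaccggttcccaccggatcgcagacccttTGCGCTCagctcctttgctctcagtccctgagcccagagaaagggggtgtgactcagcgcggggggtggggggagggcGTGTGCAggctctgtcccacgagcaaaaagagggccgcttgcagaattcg
Slc30a1: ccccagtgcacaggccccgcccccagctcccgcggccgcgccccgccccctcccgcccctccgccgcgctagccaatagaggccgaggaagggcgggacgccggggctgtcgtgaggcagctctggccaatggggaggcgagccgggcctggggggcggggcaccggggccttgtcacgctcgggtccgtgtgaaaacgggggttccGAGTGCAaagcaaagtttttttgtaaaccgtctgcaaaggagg
The first run holds 1 match, the second 3 and the third 1. Counted in the whole 300-base window of the promoter table, which runs 50 bases past the start, Mt1 had 3 matches, Mt2 4 and Slc30a1 2. Among all 32851 promoter windows, 25.7% held at least 1 match, 7.11% at least 2 and 1.97% at least 3. Windows were found for 31 of the 35 genes. Of their 37 windows 20 held a match (54.1%), and 4 held at least 3. Besides Mt1 and Mt2 these 4 were the windows of Slc30a4 and Slc30a10. The patterns cannot match the same letters on 1 strand, since they differ at a fixed position, and a match is a run of letters and not a measured binding site.

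The groups were not told apart at the threshold in any of the zinc and copper genes. With 2 arrays per group, that does not show that they were equal. With limma and Benjamini-Hochberg adjustment over all genes, 0 of the 35 members passed an adjusted p of 0.05, as did 0 of 18194 genes (0%). The lowest adjusted p among members was 0.524. At an unadjusted p under 0.05 there were 2 members, Slc39a3 and Slc39a11, which is 5.71% of the 35, against 8.02% of all genes. A higher mean on the labelled Tfrc-null arrays was seen in 25 members, against 57.5% of all genes. These counts include 5 members that were not above the control level on every array. With each array centred on its median, 17 of 35 members had a higher mean, and 46.8% of all genes. Groups did not overlap in 12 members (34.3%), against 34.9% of all genes. Of these, 9 were higher on the labelled Tfrc-null arrays, where 20.6% of all genes were, and 3 were lower, where 14.3% were. By the brightest probe set of each gene, none of the members had a difference of at least 2-fold without overlap, which 2.66% of all genes had. The median log2 difference, labelled Tfrc-null minus wildtype, was 0.06 over the members and 0.04 over all genes. With 2 arrays against 2, the smallest two-sided p that an exact permutation test of a single value allows is 0.333.

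**Figure D1:**
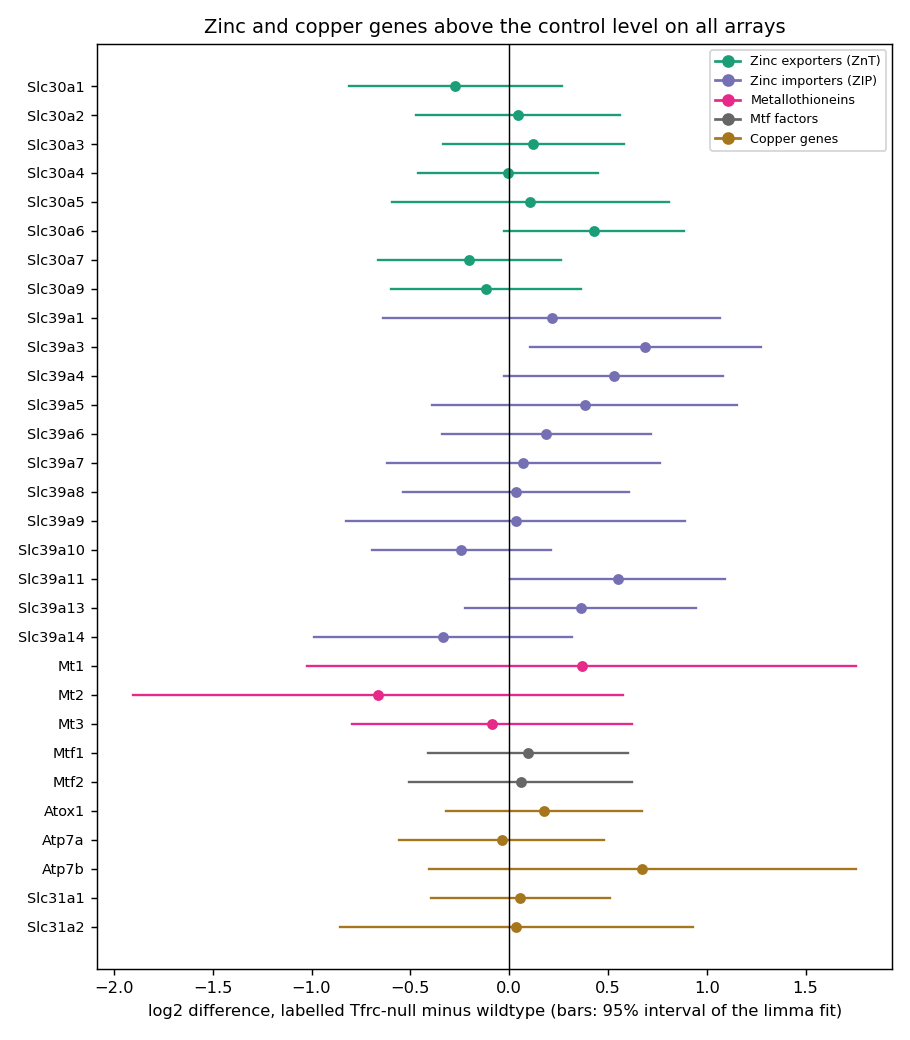
Each row is 1 of the 30 genes above the control level on all arrays, the point its log2 difference (labelled Tfrc-null minus wildtype, 2 arrays each) and the bar the 95% interval of the limma fit, coloured by family. The intervals of Slc39a3 and Slc39a11 lie above 0, and those of Mt1, Mt2 and Atp7b are the widest.

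Above the control level on all 4 arrays stood 30 members. Mt4 (5.50 to 6.98), Slc30a8 (6.62 to 7.19) and Slc30a10 (5.81 to 6.91) did not exceed it on any array. Mt4 is a metallothionein of stratified epithelia, Slc30a8 fills the insulin granules of pancreatic beta cells, and Slc30a10 is a manganese exporter. Slc39a12, a zinc importer best known from brain, stood above it on 1 array of each group, with 6.80 and 9.13 on wildtype arrays and 7.71 and 7.26 on the others. Slc39a2, an importer of the cell surface, was at or below it on both wildtype arrays (7.13 and 8.99) and above it on both others (9.29 and 10.1). With the control level in place of the wildtype values, the labelled Tfrc-null arrays were 1.20-fold higher. All 4 values lay near the control level, the second wildtype and first labelled Tfrc-null array nearly met, and the limma adjusted p was 0.875. No other difference is given for these 5 genes.

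**Figure D2:**
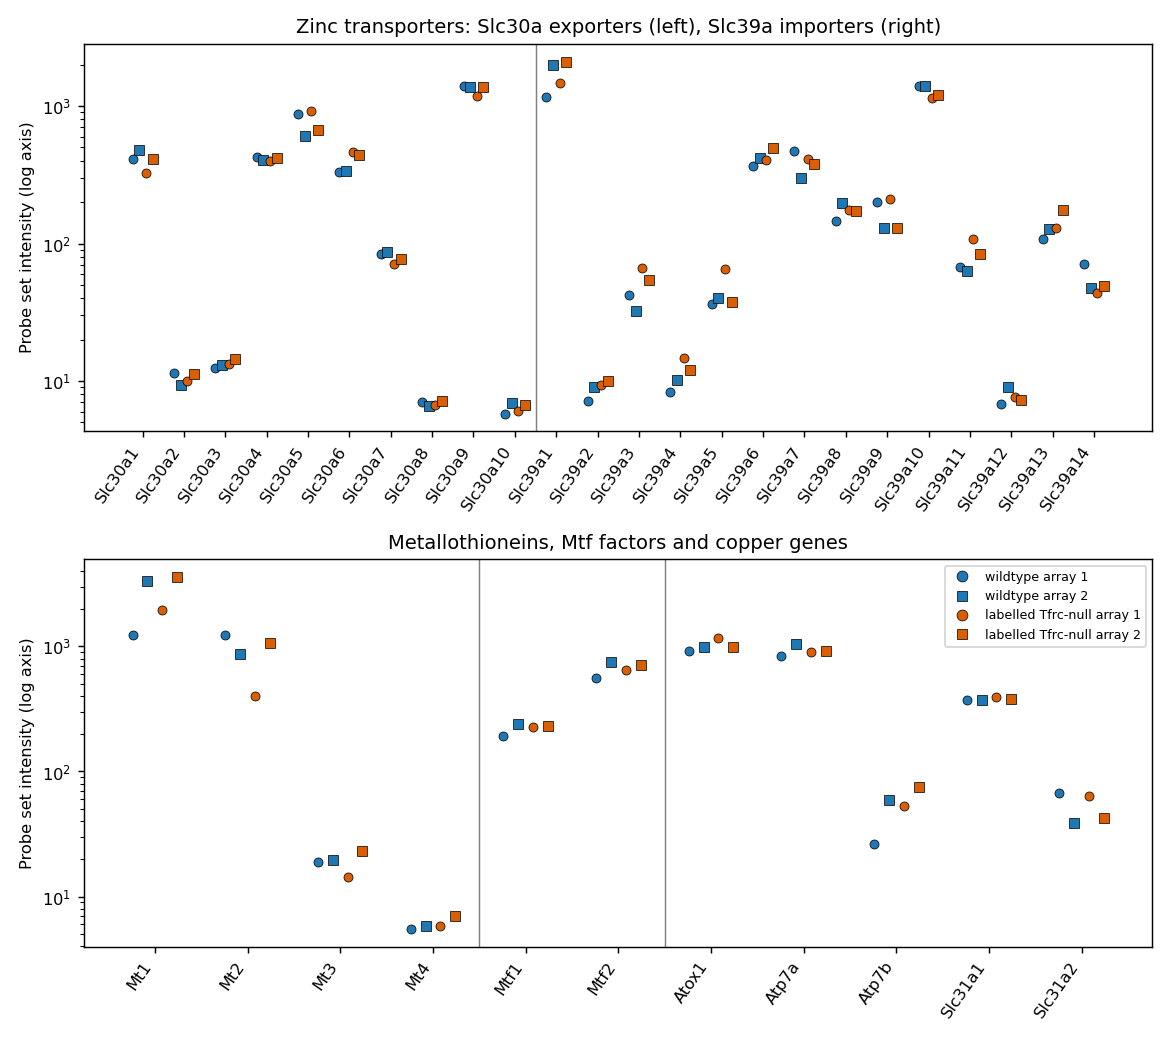
Probe set intensity of each member on the 4 arrays, on a log axis, with zinc transporters above and the other genes below. Blue marks wildtype and orange labelled Tfrc-null arrays, circles the arrays numbered 1 and squares those numbered 2. Slc39a3 and Slc39a11 have both orange points above both blue ones, whereas the points of Mt1 pair by shape.

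Among zinc importers, 11 of 14 had a higher mean on the labelled Tfrc-null arrays, with a median log2 difference of 0.20 against 0.04 over all genes. With median centring or quantile normalization this was 9 of 14, with medians of 0.14 and 0.18. These counts include Slc39a2 and Slc39a12, which were not above the control level on every array. Slc39a3, which brings zinc in across the plasma membrane, read 42.2 and 32.4 on wildtype arrays and 66.0 and 53.9 on labelled Tfrc-null arrays, and the groups did not overlap. The means were 37.3 ± 6.91 and 60.0 ± 8.54 (SD, n = 2 each), a log2 difference of 0.69 (SE 0.23, 95% interval 0.11 to 1.27, limma adjusted p = 0.524). The difference had the same sign between the arrays numbered 1 (0.65) and between those numbered 2 (0.73). A second Slc39a3 probe set read 27.7 and 26.5 against 28.2 and 47.4, so that it was clearly brighter on the second labelled Tfrc-null array alone.

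Slc39a11, a ZIP of its own subfamily found on inner membranes, read 68.0 and 62.7 on wildtype and 109 and 83.8 on labelled Tfrc-null arrays. Both of the latter were above both wildtype values, with a log2 difference of 0.55 (SE 0.22, 95% interval 0.0042 to 1.09, limma adjusted p = 0.619). Without the first labelled Tfrc-null array it was 0.36. Slc39a4, the importer of dietary zinc in the gut, read 8.38 and 10.2 against 14.8 and 12.0. That was higher without overlap, but close to the control level, by 0.53 on the log2 scale (95% interval -0.02 to 1.08, limma adjusted p = 0.641). Slc39a13, which releases zinc from the Golgi and vesicles and is needed in connective tissue, read 108 and 128 against 131 and 175. Its groups were apart by little, since the second wildtype and first labelled Tfrc-null array nearly met, and its log2 difference of 0.36 had an interval of -0.22 to 0.95. It was 0.57 without the first labelled Tfrc-null array and 0.15 without the second.

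Importers that stood lower were few. Slc39a10, a plasma membrane importer, read 1393 and 1390.3 on wildtype and 1144 and 1210.1 on labelled Tfrc-null arrays, a log2 difference of -0.24 (95% interval -0.70 to 0.21) without overlap. A dimmer Slc39a10 probe set overlapped, with 40.2 and 64.6 against 67.6 and 54.7. Slc39a14, which also takes up iron that is not bound to transferrin, read 71.5 and 47.6 against 43.8 and 49.0, with only the first wildtype array set apart, and its log2 difference of -0.33 was -0.039 without that array. Its second probe set read 26.9 and 26.1 against 17.6 and 19.6, lower without overlap. That log2 difference was -0.51 (SE 0.19, limma adjusted p = 0.651 over 34958 probe sets). A dimmer Slc39a14 probe set, above the control level on 3 arrays, went the other way. It read 7.25 and 5.60 against 10.1 and 7.93, higher without overlap. The dimmest was never above the control level. With the mean of all probe sets, the log2 difference of Slc39a14 was -0.074. Slc39a8, the other importer that carries iron, had a log2 difference of 0.04, with an interval of -0.53 to 0.60.

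The remaining importers overlapped between groups. Slc39a5, which faces the blood side of epithelia, read 36.4 and 40.0 against 65.5 and 37.8, so that its higher mean came from the first labelled Tfrc-null array, and its log2 difference was -0.015 without that array. Slc39a1, an importer of the cell surface found in most tissues, read 1163 and 1993 against 1482 and 2108, higher on both arrays numbered 2. Slc39a9 of the Golgi read 200.2 and 129.7 against 210.2 and 129.3, higher on both arrays numbered 1. Slc39a6 and Slc39a7, importers of the plasma membrane and of the endoplasmic reticulum, had log2 differences of 0.19 and 0.07.

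Of 10 zinc exporters, 6 had a higher mean, 3 with median centring and 4 with quantile normalization, and the median log2 difference was 0.01. These counts include Slc30a8 and Slc30a10, which were never above the control level. Without the second wildtype array, or without the second labelled Tfrc-null array, 3 of 10 had a higher mean. Slc30a6, which pairs with Slc30a5 to load zinc into enzymes of the secretory pathway, read 329 and 339.5 on wildtype arrays and 464 and 438 on labelled Tfrc-null arrays. Replicates lay close together here and the groups did not overlap, with means of 334 ± 7.15 and 451 ± 18.2 (SD, n = 2 each) and a log2 difference of 0.43 (SE 0.18, 95% interval -0.02 to 0.88, limma adjusted p = 0.649). The difference was 0.49 between the arrays numbered 1 and 0.37 between those numbered 2. Its partner Slc30a5 read 874 and 606 against 914 and 672, and was higher on both arrays numbered 1. Slc30a1, the exporter of the plasma membrane and a target of Mtf1, read 414 and 477 against 329 and 412. It stood lower without overlap, though the nearest arrays of the groups read almost the same, and its log2 difference was -0.27 (95% interval -0.81 to 0.27, limma adjusted p = 0.883). With 1 array left out, it lay between -0.43 and -0.11, nearest 0 without the first labelled Tfrc-null array. A dimmer Slc30a1 probe set overlapped, with 33.9 and 25.7 against 23.9 and 32.0, a log2 difference of -0.09.

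Slc30a7, the other exporter of the Golgi route, depended on the probe set. The brighter read 84.0 and 87.0 against 71.1 and 77.8, lower without overlap (log2 difference -0.20), and the other read 63.8 and 73.0 against 75.2 and 101, higher without overlap (0.36). Slc30a4, of late endosomes, read 423 and 404 against 402 and 422, with a log2 difference of -0.0061 and an interval of -0.46 to 0.45. Slc30a9, linked to mitochondrial zinc, differed by -0.12 and its groups overlapped. The dim exporters Slc30a2 and Slc30a3, known from secretory vesicles and synaptic vesicles, read 9.34 to 11.4 and 12.5 to 14.5 over the 4 arrays.

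The values of Mt1 and Mt2 varied more between replicates than between groups. Mt1 read 1245 and 3367 on wildtype arrays and 1948 and 3586 on labelled Tfrc-null arrays, so that both arrays numbered 2 were above both numbered 1 and the groups overlapped. Its log2 difference between groups was 0.37 (SE 0.55, 95% interval -1.02 to 1.76, limma adjusted p = 0.976), against 1.16 between the arrays numbered 2 and those numbered 1. Without the first wildtype array it was -0.35, and without the second labelled Tfrc-null array -0.072. A second Mt1 probe set read 28.3 and 36.5 against 28.0 and 43.3, again higher on both arrays numbered 2.

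Mt2 lies beside Mt1, as neighbouring coding genes in the RefSeq table, but followed another order over the arrays. It read 1236 and 866 on wildtype arrays and 404 and 1058 on labelled Tfrc-null arrays, low on 1 array and overlapping between groups. The log2 difference was -0.66 (SE 0.49, 95% interval -1.90 to 0.58, limma adjusted p = 0.871). It was -1.61 between the arrays numbered 1 and 0.29 between those numbered 2, and 0.03 without the first labelled Tfrc-null array. Mt3, known from brain and testis, read 19.0 and 19.7 against 14.3 and 23.2. The Mt1 probe set used carries the suffix that the array maker gives to probe sets shared by several transcripts, and those of Atox1 and Slc39a7 carry it too, so signal of a close copy may be included.

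Mtf1 read 193 and 238 on wildtype and 228 and 229.6 on labelled Tfrc-null arrays, with a log2 difference of 0.10 (95% interval -0.41 to 0.60). Mtf2 shares its name with Mtf1 but is known as an accessory protein of Polycomb repressive complex 2, and it read 563 and 751 against 646 and 709. A dim Mtf2 probe set, the fifth of its 6 by brightness, read 19.7 and 24.4 against 38.5 and 34.1, higher without overlap by 0.72 on the log2 scale (limma adjusted p = 0.522 over 34958 probe sets). The 4 brighter Mtf2 probe sets differed by -0.26 to 0.12. Other genes reported as targets of Mtf1 were Gclc, Ndrg1, Selenow and Pgf, and 0 of 4 passed; 3 had a higher mean, 1 with median centring, 1 without the first wildtype or the second labelled Tfrc-null array and 2 without the second wildtype array. Gclc, which makes the first step of glutathione synthesis, stood at 115 ± 6.05 against 153 ± 11.2 (SD, n = 2 each), with a log2 difference of -0.41 (SE 0.19). The other 3 differed by 0.0040 to 0.12.

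**Figure D3:**
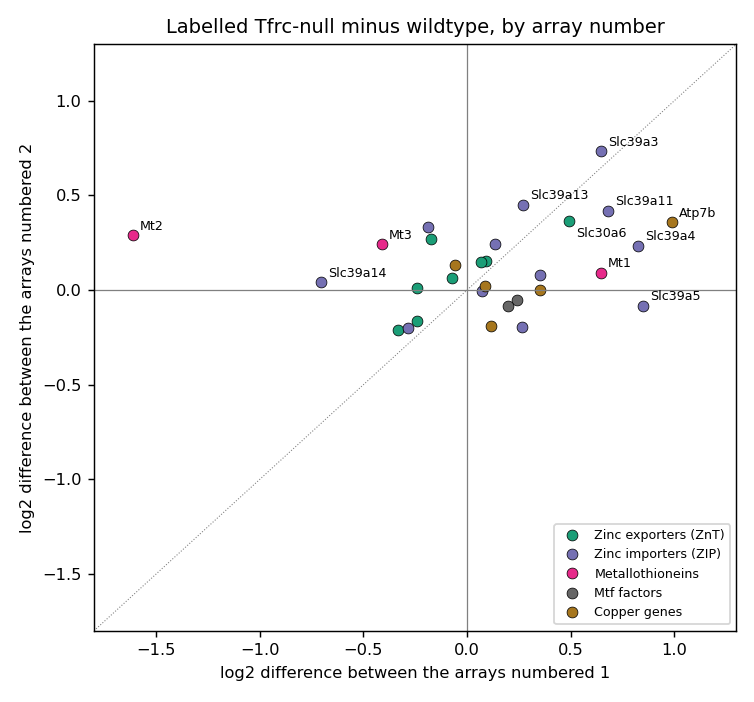
Each point is 1 of the 30 genes above the control level on all arrays, with its log2 difference (labelled Tfrc-null minus wildtype) between the arrays numbered 1 on the horizontal axis and between those numbered 2 on the vertical axis, and a dotted line where both are equal. Slc39a3 lies near the line at 0.65 and 0.73, and Mt2 lies far from it at -1.61 and 0.29.

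The order of the arrays by their number was also counted. Both arrays numbered 2 were apart from both numbered 1 in 13 of 35 members (37.1%), against 46.6% of all genes. Mt1, Mt3, Mtf1, Mtf2, Slc39a1, Slc39a6, Atp7a, Atp7b and Slc30a10, the last never above the control level, were higher on the arrays numbered 2, and Slc30a5, Slc31a2, Slc39a7 and Slc39a9 were lower there. The bacterial hybridization control BioB gave 5350.1 and 5780.2 for number 1, against 3760 and 4068 for number 2. For beta-actin the 3' signal was 5.51 and 5.89 times the 5' signal for number 1 and 6.49 and 7.21 times for number 2, a measure that moves with RNA length. The labels do not say what the number stands for, and the part of these controls in the values above was not tested.

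Of 5 copper genes 4 had a higher mean, 2 with median centring, and Atp7a differed between its 2 probe sets. The brighter probe set read 834 and 1049 on wildtype arrays and 902 and 921 on labelled Tfrc-null arrays, an overlap with a log2 difference of -0.04 (95% interval -0.56 to 0.48). The other read 247 and 109 on wildtype arrays and 61.0 and 41.8 on the others, so that all wildtype values were higher. Its means were 178 ± 97.2 and 51.4 ± 13.6 (SD, n = 2 each), a 3.26-fold difference (log2 difference -1.70, SE 0.44, limma adjusted p = 0.445 over 34958 probe sets), the largest of the 68 probe sets. Of 20 further probe sets above the control level on all arrays, in 14 genes, 12 differed in the same direction as the one used and 8 in the other.

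**Figure D4:**
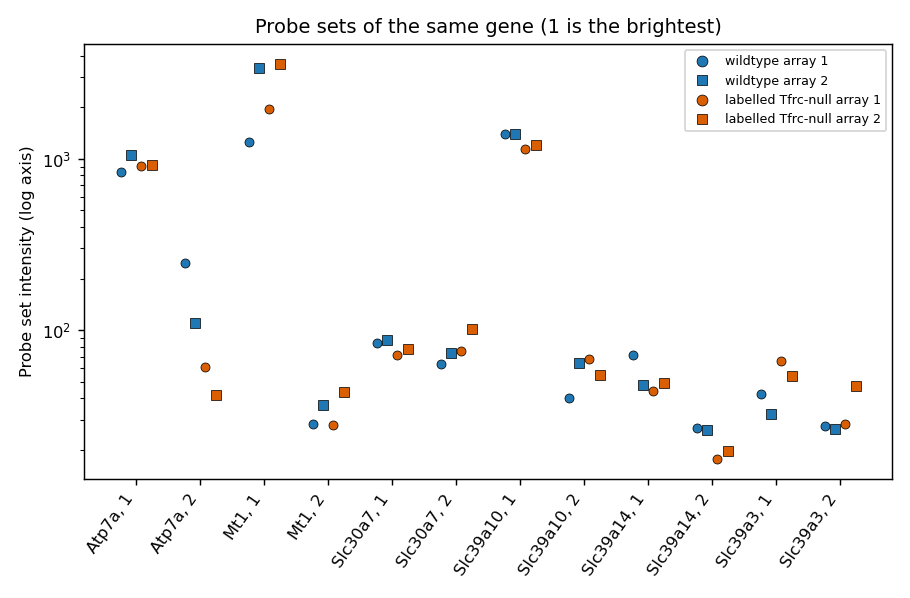
Intensity on the 4 arrays (log axis) of the probe sets above the control level for 6 members with more than 1, numbered by brightness within the gene. The second Atp7a probe set lies between 41.8 and 247, with both wildtype points above the others, and the first between 834 and 1049.

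Atp7b, the ATPase that passes copper to ceruloplasmin, read 26.5 and 58.8 on wildtype arrays and 52.7 and 75.4 on labelled Tfrc-null arrays. The groups overlapped, and the log2 difference was 0.67 (SE 0.43, 95% interval -0.41 to 1.75, limma adjusted p = 0.821). It was 0.099 without the first wildtype array and 1.25 without the second. The importer Slc31a1 read 372 and 371 against 395 and 378, a log2 difference of 0.06 with an interval of -0.40 to 0.51. The chaperone Atox1 read 919 and 982.4 against 1172 and 982.6, so its groups were separated by 1 near tie. Slc31a2, of endosomes and lysosomes, read 66.8 and 38.7 against 64.1 and 42.4, higher on both arrays numbered 1.

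Among copper chaperones and copper enzymes outside the family, 19 of 23 measured genes had a higher mean on the labelled Tfrc-null arrays, 17 of 23 with median centring, and 0 passed. Over all genes 57.5% had a higher mean, and 46.8% with median centring. The median log2 difference was 0.25. Groups did not overlap in 11 higher and 1 lower gene, where 20.6% and 14.3% of all genes did not. The 4 with the smallest p were higher: Steap3 and Steap4, metalloreductases of copper and iron, by 0.64 and 0.75, the collagen and elastin cross-linking enzyme Loxl1 by 0.77 and the ferroxidase ceruloplasmin (Cp) by 1.13. Loxl1 stood at 260.5 ± 39.0 against 154 ± 34.2, and Cp at 50.6 ± 12.1 against 25.0 ± 14.7 (SD, n = 2 each). Their limma adjusted p ran from 0.505 to 0.655. Among zinc-linked enzymes, channels and the zinc receptor Gpr39, 9 of 12 had a higher mean, 7 of 12 with median centring, and 0 passed. Carbonic anhydrase 2 (Car2), a zinc enzyme of red cells and intercalated cells, stood lower at 403 ± 108 against 772 ± 290.0. The zinc peptidase Mme was higher by 0.46 on the log2 scale. The pH-regulating enzyme Car9 read 10.2 and 13.33 on wildtype and 13.34 and 30.6 on labelled Tfrc-null arrays. Its log2 difference of 0.79 (limma adjusted p = 0.762) came mostly from the second labelled Tfrc-null array. Gpr39 read 8.62 and 8.49 on wildtype and 13.4 and 10.3 on labelled Tfrc-null arrays, the second wildtype value below the control level of its array.

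Marker genes of kidney cell types were read on the same arrays. Their lists were chosen with earlier results of these data known, so the counts below are partly fixed by that choice. Over all genes 57.5% had a higher mean on the labelled Tfrc-null arrays. Stromal markers, which include matrix genes, had a higher mean in 10 of 10 genes, and their summed intensity was 9278 to 12986 on wildtype and 15522 to 17310.4 on labelled Tfrc-null arrays. Markers of the ureteric bud and collecting duct were lower in 14 of 14 (7364 to 7893 against 2910 to 3633) and endothelial markers in 10 of 10 (5332 to 6078 against 3052 to 3692). Loop and distal markers were lower in 7 of 7 (2246 to 2582 against 1240.3 to 1442) and cap mesenchyme markers in 7 of 8 (2294 to 2711 against 1688 to 2019). Proximal tubule markers were lower in 8 of 10, but their sums overlapped (2497 to 3693 against 2550.3 to 2837), and 5 of 10 had a higher mean without the second wildtype array. Erythroid markers were lower in 11 of 11 (1636 to 4442 against 249 to 282). The probe sets read for Hba-a1, Epb42 and Rhag were never above the control level, and probe sets naming several genes were left out. Neutrophil markers were lower in 6 of 8 (5077 to 8647 against 151 to 577), with Elane never above the control level. Leukocyte markers had a higher mean in 7 of 10, with overlapping sums (6684 to 8389 against 7740.2 to 8343). Of these 10 markers 2 were higher and 3 lower without overlap, where 20.6% and 14.3% of all genes were. Without the first labelled Tfrc-null array 4 of 10 had a higher mean. With limma 0 of these markers passed, and all cap mesenchyme and proximal tubule markers stood above the control level on the 4 arrays. In sorted pools, fewer cells of a type and less RNA per cell cannot be told apart, and the part of cell make-up in the zinc and copper values was not tested.

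Glucocorticoids and stress are known to induce metallothioneins, and both kinds of responsive genes were counted. Of 9 glucocorticoid-responsive genes 5 had a higher mean (median log2 difference 0.0091), among them Cebpd at 300.3 ± 135 against 145 ± 46.2 (SD, n = 2 each) and Tsc22d3, higher by 0.55. Klf9 and Zbtb16 differed by -0.47 and -0.30. Of 12 genes of dissociation and stress 5 had a higher mean (median -0.01), with Junb at 0.42, Ier2 at 0.14, Fosb at 0.12 and Jun at -0.12. Without the first labelled Tfrc-null array 9 of the 12 had a higher mean (median 0.26), and without the second 3 (median -0.17). In both lists 0 genes passed the limma threshold.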

How the data were processed

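Each of the 4 arrays, 2 per group, was an Affymetrix mouse array with 45101 probe sets, hybridized with RNA amplified from 50 ng of total RNA per the labels' protocols. The authors deposited 1 linear intensity per probe set; RMA is the only tool in the submitters' processing notes, and its version, settings and the return from log2 are not stated there. RMA as usually run includes quantile normalization between arrays; whether it was used is not stated, and array medians differed. The number of arrays limits the precision.

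The platform annotation named a single gene for 34958 probe sets; the 932 with several symbols and the 9211 without one were left out. Symbols were updated by Entrez identifier through a RefSeq table of GRCm38.p6, which held 18033 of 18194 genes. Under R 4.3.3, lmFit and eBayes of limma 3.58.1 were run on log2 intensities, without filter or block. Adjusted p-values are Benjamini-Hochberg over the 18194 genes, called at 0.05; the script was checked on simulated data. Folds come from the log2 difference. A fold is a lower bound where a group lay at or below the control level. All members are named, with Tfrc and up to 4 genes of each other list with the smallest p. The members and lists were chosen with earlier results of these data known. Alternatives were a replicate block, each array left out, the mean of all probe sets, quantile normalization, median centring, a filter on dim genes and an offset of 16. RefSeq promoter windows were searched for motif letters on both strands.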

Additional observations from a re-analysis of the deposited data

How the results depend on the processing

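In every setting 0 of the 35 members and 0 genes of the 5 pathway and stress lists passed the limma threshold; the lowest adjusted p of a member was 0.191, with the replicate block. Over all genes 2 passed with the replicate block, 1 with the mean of all probe sets and 1 with the filter on dim genes; the lowest adjusted p of a neutrophil marker was 0.0149, 0.0436 and 0.0486 there. Members with an unadjusted p under 0.05 numbered 4 with the replicate block or the offset, 5 with the mean of all probe sets, and 1 with quantile normalization or median centring. The share of all genes at that p was counted in the main fit alone (8.02%), so a change in these counts cannot be read as one of the members. Members whose groups do not overlap numbered 20 to 31 with an array left out (64.1% to 71.5% of all genes), since 1 array then stands for a group. The replicate numbers are shared by the groups, and deviations from the group mean correlated at 0.51 between same-numbered arrays over 18194 genes, but with 2 numbers and no label for them a pairing is not shown; the block turned no member's direction.

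Of the 30 members above the control level on all arrays, 11 kept their direction in every setting and 19 turned in at least 1, each with a main difference of at most 0.66. The cause was not tested. With median centring, the log2 difference was -0.0058 for Mtf2, -0.018 for Slc30a2, -0.0074 for Slc31a1, -0.028 for Slc31a2, -0.029 for Slc39a8 and -0.031 for Slc39a9. With quantile normalization it was -0.025 for Slc39a8 and -0.017 for Slc39a9. With the mean of all probe sets it was -0.033 for Atox1, 0.078 for Slc30a7, -0.034 for Slc31a2, -0.18 for Slc39a9 and 0.0071 for Slc39a10. With 1 array left out, the lone array assumed to vary like the others, ranges were -0.20 to 0.13 for Atp7a, -0.35 to 1.09 for Mt1, -1.36 to 0.033 for Mt2, -0.44 to 0.27 for Mt3, -0.054 to 0.25 for Mtf1, -0.15 to 0.27 for Mtf2, -0.095 to 0.19 for Slc30a2, -0.042 to 0.03 for Slc30a4, -0.16 to 0.37 for Slc30a5, -0.36 to 0.43 for Slc31a2, -0.17 to 0.60 for Slc39a1, -0.015 to 0.78 for Slc39a5, -0.26 to 0.40 for Slc39a7, -0.19 to 0.26 for Slc39a8 and -0.32 to 0.38 for Slc39a9. The filter on dim genes left 21 members. For the 5 members not above the control level on every array no difference is given, apart from the bound for Slc39a2.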
